A study of Homo sapiens with 18 samples.

Results

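The genes described here are 49 interferon-stimulated genes, the members of a list of antiviral, ubiquitin-like, membrane, ADP-ribosylating and regulatory genes, taken by name and followed individually in every library. All 49 were found by symbol among the 58884 gene identifiers of the deposited count files. RNA was measured by poly(A) sequencing in T47D, a luminal breast cancer cell line, in 18 libraries that form 6 groups of 3. WT cells, labelled T47D AAV, and PARP1 KO cells, labelled T47D JL, each received DMSO, niraparib at 10 µM or olaparib at 10 µM for 48 hours. Niraparib, an indazole carboxamide, and olaparib, a phthalazinone, are both inhibitors of PARP1 and PARP2, enzymes that mark DNA breaks with poly(ADP-ribose). What AAV and JL stand for is not given in the sources used here, nor is the number of clones behind the PARP1 KO cells, so genotype cannot be told apart from other differences between the 2 cultures.

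Interferons are secreted proteins that bind receptors on the cell surface and, through the kinases JAK1 and TYK2, activate transcription factors, STAT2 among them. With its partner IRF9, STAT2 acts at the interferon-stimulated response element (ISRE), whereas signals from interferon gamma typically act through the GAS element. The same set of genes can also be reached through sensors of misplaced DNA or RNA such as cGAS, STING and RIG-I, which makes it a common readout of cells under DNA damage.

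Promoters of the members are shown first because most carry the response element that defines the family. A promoter window of 300 bases, 250 before and 50 after the annotated start, was found for 41 of the 49 members in RefSeq (GRCh38.p14). IFIT2, IFITM2, IRF7, MX2, OAS2, OASL, PARP10 and USP18 had no window. Letters GAAANNGAAA, the core of the ISRE, and TTCNNNGAA, the GAS palindrome, were searched on both strands. The ISRE core was in 29 of 41 members (70.7%) against 4.38% of all 27305 genes with a window. The GAS letters were in 12 of 41 members (29.3%) against 9.38% of all genes. The windows below belong to members whose values are described in the following paragraphs, with motif matches in capitals and all other bases in lower case. ISG15 (chr1:1013247-1013546, plus strand) holds 2 overlapping ISRE cores, 113 and 107 bases before the start. ISG20 (chr15:88638766-88639065, plus strand) holds 1 at 69 bases and SAMD9 (chr7:93117930-93118229, minus strand) holds 1 at 136 bases before the start. IRF1 (chr5:132490724-132491023, minus strand) has no ISRE core in this window and has 1 GAS match, 124 bases before the start. IFIT1 (chr10:89392373-89392672, plus strand) holds ISRE cores 116 and 103 bases before the start, and its neighbour IFIT5 (chr10:89414318-89414617, plus strand) holds 3 of them, at 45, 19 and 4 bases, all on the opposite strand.
ISG15: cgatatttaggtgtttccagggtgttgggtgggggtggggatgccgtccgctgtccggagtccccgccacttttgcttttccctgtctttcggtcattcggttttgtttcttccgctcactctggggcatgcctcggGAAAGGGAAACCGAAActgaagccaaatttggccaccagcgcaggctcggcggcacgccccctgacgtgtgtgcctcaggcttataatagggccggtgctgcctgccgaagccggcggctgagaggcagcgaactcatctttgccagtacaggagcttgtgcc
ISG20: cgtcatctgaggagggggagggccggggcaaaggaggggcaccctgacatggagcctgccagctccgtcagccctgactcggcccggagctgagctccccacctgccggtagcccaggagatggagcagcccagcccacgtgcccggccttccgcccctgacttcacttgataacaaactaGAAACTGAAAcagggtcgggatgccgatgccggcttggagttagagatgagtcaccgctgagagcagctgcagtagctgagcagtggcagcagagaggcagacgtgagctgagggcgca
SAMD9: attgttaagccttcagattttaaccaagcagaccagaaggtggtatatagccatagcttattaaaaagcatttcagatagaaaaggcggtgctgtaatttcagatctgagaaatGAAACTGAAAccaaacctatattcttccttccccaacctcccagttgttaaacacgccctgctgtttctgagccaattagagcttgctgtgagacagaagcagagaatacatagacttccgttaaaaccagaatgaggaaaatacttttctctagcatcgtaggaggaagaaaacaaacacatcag
IRF1: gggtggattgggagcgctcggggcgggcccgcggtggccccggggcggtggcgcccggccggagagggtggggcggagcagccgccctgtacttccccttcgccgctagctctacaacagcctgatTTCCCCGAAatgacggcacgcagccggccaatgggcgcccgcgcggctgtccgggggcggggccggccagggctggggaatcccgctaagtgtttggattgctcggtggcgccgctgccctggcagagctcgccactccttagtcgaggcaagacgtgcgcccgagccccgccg
IFIT1: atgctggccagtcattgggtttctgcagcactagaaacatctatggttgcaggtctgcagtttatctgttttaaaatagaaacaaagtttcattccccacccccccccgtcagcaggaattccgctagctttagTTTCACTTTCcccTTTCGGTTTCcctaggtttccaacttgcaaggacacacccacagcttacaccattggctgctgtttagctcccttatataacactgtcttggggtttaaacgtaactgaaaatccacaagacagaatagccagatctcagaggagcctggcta
IFIT5: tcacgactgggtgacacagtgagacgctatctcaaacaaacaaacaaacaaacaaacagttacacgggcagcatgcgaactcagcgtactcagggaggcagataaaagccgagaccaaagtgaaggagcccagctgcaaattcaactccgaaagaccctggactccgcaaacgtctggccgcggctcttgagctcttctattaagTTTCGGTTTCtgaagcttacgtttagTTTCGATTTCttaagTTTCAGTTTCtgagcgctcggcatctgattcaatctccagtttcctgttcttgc

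Library totals ranged from 28890837 to 52251288 counts, and the biological coefficient of variation was 7.04% in WT, 7.42% in PARP1 KO and 7.24% over all 18 libraries. PARP1 itself was at 292 to 373 CPM (counts scaled to a common library total) in WT libraries and at 22.9 to 27.6 CPM in PARP1 KO libraries. The luminal markers ESR1, PGR, GATA3, FOXA1, KRT8, KRT18, KRT19 and EPCAM summed to 12316 to 12863 CPM in WT DMSO libraries, to 8866 to 9761 CPM with niraparib and to 9637 to 10055 CPM with olaparib. In PARP1 KO libraries they summed to 13668 to 14391 CPM with DMSO, 12619 to 13014 CPM with niraparib and 11609 to 12674 CPM with olaparib, so that both drug groups lay below DMSO in each genotype. Of the leukocyte markers, listed because leukocytes could bring interferon-stimulated RNA, CD3E had 0 to 3 counts per library, LYZ 0 to 2, TYROBP 0 to 1, PTPRC 0 to 6 and CD14 3 to 17. The 4 fibroblast markers summed to 89.0 to 154 CPM, nearly all of it COL1A1. LUM, another of these, was higher with niraparib than with olaparib in WT cells (19, 22 and 32 counts against 3, 5 and 7, with a log2 difference of 2.001 ± 0.55 and an edgeR adjusted p of 7.3e-03), and its part in the members' values was not tested. In bulk RNA, fewer cells with a transcript and less of it per cell cannot be told apart. WT DMSO replicate 1 was the lowest library of its group for 27 of the 43 members with a mean of at least 1 CPM, and calls that were lost or gained without it are given beside the results.

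In untreated WT cells the members spanned a wide range of levels, compared here per length as RPKM (CPM divided by the exon length in kilobases). BST2, the membrane tether that holds budding virus at the cell surface, led with 173 ± 10.3 RPKM (SD, n = 3). UBE2L6, the conjugating enzyme for ISG15, followed with 49.7 ± 2.67 RPKM. LGALS3BP, IFI6, STAT2, TRIM25, IFI35, OAS3 and IFITM2 were the other members above 10 RPKM. Another 20 members lay between 1 and 10 RPKM, and 20 lay at or below 1 RPKM. IRF1 was at 0.677 ± 0.0153 RPKM and ISG20 at 0.590 ± 0.0134 RPKM, in the lower part of the order. Of the 48 neighbouring pairs in this order, 36 overlapped within 1 SD, so that the order between most neighbours is not resolved. At the bottom, IFI44L had 0 to 3 counts in any library, CMPK2 0 to 4, RSAD2 1 to 15 and IFI44 1 to 23. IFI44L passed the filter on low counts (more than 10 in total) only in the 18-library fit, and the other 48 members were tested in every comparison.

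**Figure D1:**
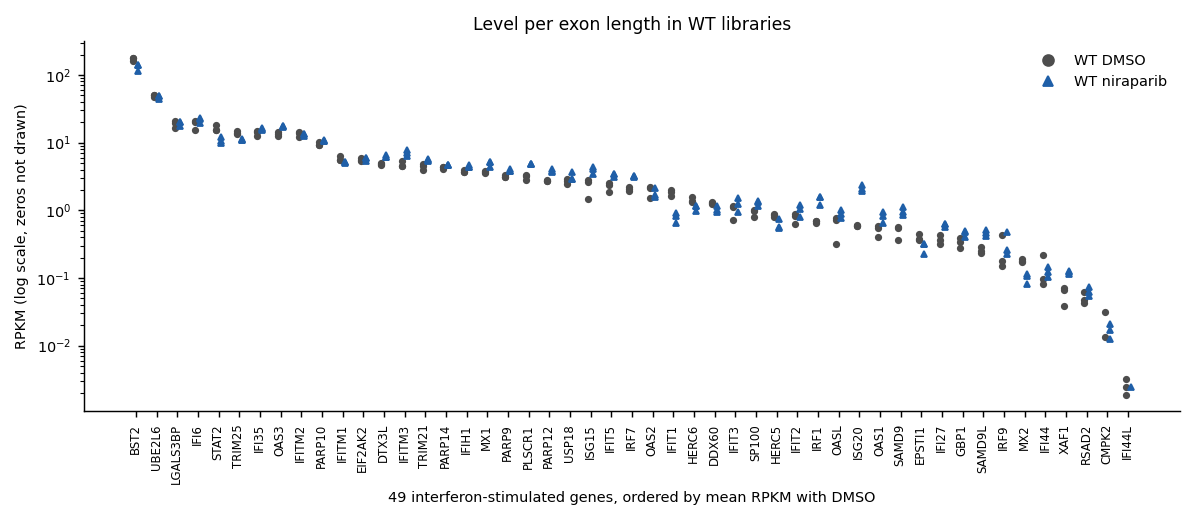
Levels of the 49 members in WT cells, ordered by mean RPKM with DMSO (log axis, values of 0 not drawn), with 1 dot per WT DMSO library and 1 triangle per WT niraparib library. BST2 stands highest at 173 RPKM and IFI44L lowest at 0.00253 RPKM, and for most members dots and triangles lie close together.

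Niraparib in WT cells changed 12 of the 48 tested members, 10 upward and 2 downward. The call required more than 1.5-fold together with an edgeR adjusted p, over all genes tested, below 0.05. The exonuclease gene ISG20 rose most (log2 fold change 1.86), followed by IRF1 (1.09) and XAF1 (1.07), while IFIT1 (-1.23) and MX2 (-0.86) fell. Of all 22446 genes tested, 13.8% were called, 8.1% upward and 5.72% downward, against 25% of the members. On the adjusted p alone 29 members passed, 21 of them higher, beside 38.0% of all genes. The median log2 fold change of the members was 0.28, beside -0.02 for all genes, and 34 of the 48 were above 0. With more than 2-fold required, 4 members (8.33%) were called beside 6.51% of all genes, and above a log2 fold change of 1.5 it was 1 (2.08%) beside 3.16%, so that the members' share was near or below the background there. The list was chosen with results of these data known, so these shares are a description.

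**Figure D2:**
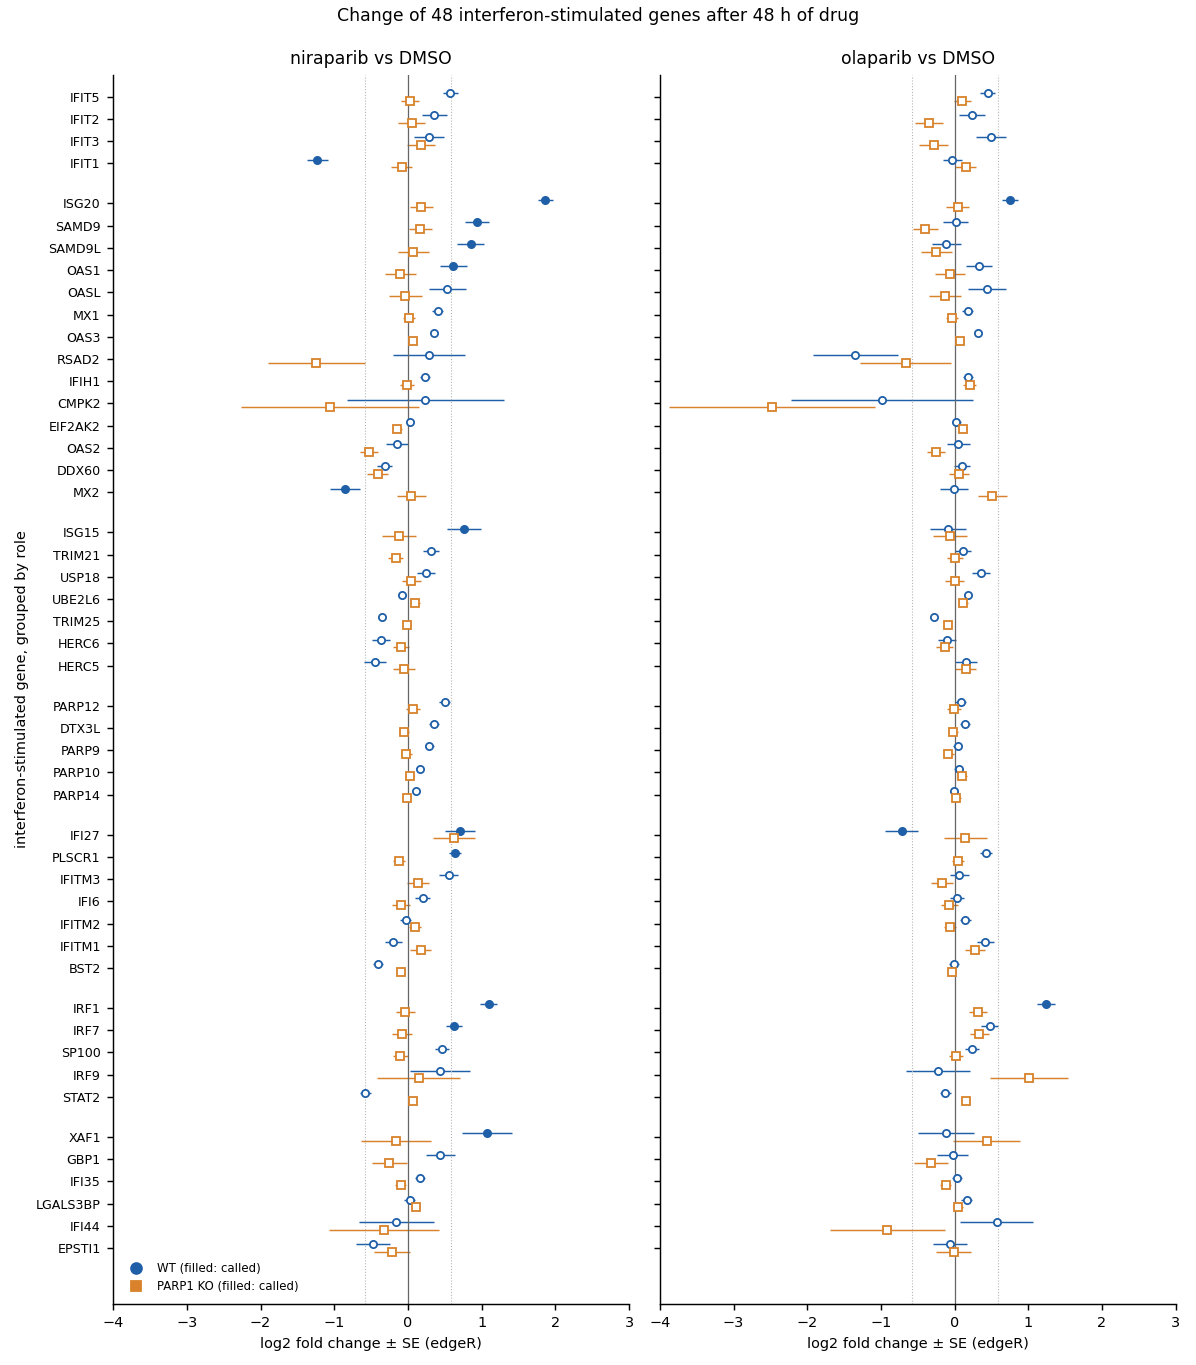
Log2 fold change against DMSO with its standard error for the 48 tested members, grouped by role, with niraparib in the left panel and olaparib in the right. WT values are blue circles and PARP1 KO values orange squares, filled where called, with dotted lines at 1.5-fold. With niraparib 12 WT values and no PARP1 KO value are filled, and with olaparib 3 and none.

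Among the direct antiviral enzymes and RNA sensors (14 members), 4 rose, 1 fell and 9 passed on the adjusted p alone with niraparib. That is 35.7% called. For this and the following role groups, the shares of all genes were 13.8% called and 38.0% past the adjusted p. ISG20, an exonuclease that degrades viral RNA (ENSG00000172183, chr15:88636153-88656483), was at 4.33, 4.21 and 4.14 CPM in the WT DMSO libraries and at 13.97, 17.05 and 15.01 CPM with niraparib. All 3 niraparib libraries were more than 3-fold above the highest DMSO library, with no overlap. The log2 fold change was 1.86 ± 0.10 (SE; edgeR adjusted p = 5.9e-12). SAMD9 and SAMD9L, adjacent antiviral and growth-restraining genes on chromosome 7 with 12033 bases between them, rose together. SAMD9 went from 2.53, 3.78 and 3.89 CPM to 6.42, 5.84 and 7.60 CPM (log2 fold change 0.94 ± 0.16, edgeR adjusted p = 6.9e-05). SAMD9L went from 1.80, 2.04 and 1.65 CPM to 3.30, 3.001 and 3.65 CPM (log2 fold change 0.85 ± 0.18, edgeR adjusted p = 7.8e-04). Neither pair of groups overlapped. OAS1, a synthetase of the oligoadenylates that activate RNase L, rose by a log2 fold change of 0.62 ± 0.18 (edgeR adjusted p = 8.0e-03), and its call was lost without WT DMSO replicate 1 (0.47) or without WT niraparib replicate 1 (0.49).

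MX2, a GTPase that restricts lentiviruses at the nuclear pore, fell with niraparib. It was at 2.30, 2.48 and 2.27 CPM with DMSO and at 1.37, 1.07 and 1.51 CPM with niraparib, without overlap (log2 fold change -0.86 ± 0.20, edgeR adjusted p = 1.7e-03). MX1, its cytoplasmic relative 10911 bases downstream on chromosome 21, was at 30.3, 33.2 and 31.8 CPM with DMSO and at 44.7, 43.9 and 37.9 CPM with niraparib. Its log2 fold change of 0.40 passed on the adjusted p (edgeR, 1.6e-04) but not on fold. The 2 MX genes thus had values of opposite sign in the same libraries. Also short of 1.5-fold but past the adjusted p were OAS3 (0.35) and the RNA sensor IFIH1, also known as MDA5 (0.23), which were higher, and the helicase DDX60 (-0.32), which was lower. OAS2 (-0.15), OASL (0.53), the kinase EIF2AK2, known as PKR (0.02), and the near-floor pair RSAD2 (0.29) and CMPK2 (0.23) did not pass.

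Among the 4 IFIT genes, which encode proteins that bind viral RNA, IFIT1 fell and none was called upward. IFIT1 (ENSG00000185745, chr10:89392546-89406487) was at 7.56, 9.23 and 8.66 CPM with DMSO and at 4.25, 3.02 and 3.75 CPM with niraparib. Every niraparib library was below every DMSO library (log2 fold change -1.23 ± 0.14, edgeR adjusted p = 2.4e-07). IFIT5, 8081 bases downstream, was at 7.49, 9.37 and 10.1 CPM with DMSO and at 13.97, 12.7 and 13.9 CPM with niraparib. Its log2 fold change of 0.58 (edgeR adjusted p = 8.0e-05) was just under the fold threshold. IFIT3 (0.28) and IFIT2 (0.35) did not pass, and 8.7% of the exon bases of IFIT2 are shared with another gene. IFIT1 and IFIT5, both with ISRE cores in the windows printed above, therefore had values of opposite sign.

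ISG15, the ubiquitin-like protein that is attached to other proteins after interferon, rose with niraparib, while UBE2L6 and HERC5, which act in its attachment, did not. ISG15 was at 1.37, 2.60 and 2.47 CPM with DMSO and at 3.78, 4.09 and 3.23 CPM with niraparib. The groups did not overlap, and the low first DMSO library carried part of the difference. The log2 fold change was 0.76 ± 0.23 (edgeR adjusted p = 0.012), and without WT DMSO replicate 1 it was 0.54 and not called. UBE2L6 (-0.08) and the protease USP18, which removes ISG15 (0.24), did not pass. HERC5, the main ISG15 ligase (-0.45), its relative HERC6 (-0.37) and TRIM25, a ubiquitin ligase acting on RIG-I (-0.35), were lower past the adjusted p but under 1.5-fold. TRIM21, a cytosolic antibody receptor and ubiquitin ligase, was higher on the same terms (0.31).

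The 4 interferon-induced PARPs and DTX3L gave small values in 1 direction. PARP9 and DTX3L, whose proteins form a complex and whose genes overlap head to head on chromosome 3, had log2 fold changes of 0.29 and 0.35 with niraparib. PARP12, which responds to viral RNA, had 0.50, and PARP10 had 0.16. All 4 passed on the adjusted p (edgeR, 5.7e-04, 1.0e-04, 1.7e-05 and 0.029 in that order), and none reached 1.5-fold. PARP14, with 0.11 and 41.6 to 47.4 CPM over the WT libraries, did not pass.

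Of the 7 membrane proteins, PLSCR1 and IFI27 rose. PLSCR1, a phospholipid scramblase with antiviral activity, was at 12.3, 14.4 and 13.7 CPM with DMSO and at 21.2, 20.9 and 21.1 CPM with niraparib. The niraparib libraries lay close together and clear of DMSO (log2 fold change 0.64 ± 0.08, edgeR adjusted p = 6.9e-07). The difference without WT DMSO replicate 1 was 0.58, just under the fold threshold. IFI27, a small mitochondrial membrane protein, went from 1.499, 1.78 and 1.32 CPM to 2.59, 2.64 and 2.32 CPM (log2 fold change 0.70 ± 0.20, edgeR adjusted p = 8.2e-03), without overlap. IFITM3, which blocks virus entry from endosomes (0.55), was higher past the adjusted p, and BST2 (-0.41) was lower, at 127 to 153 CPM with niraparib against 177 to 199 CPM with DMSO. IFI6 (0.20), IFITM1 (-0.20) and IFITM2 (-0.03) did not pass. The IFITM genes are near-identical, and 37.5% of the exon bases of IFITM1 and 22.7% of those of IFITM2 are shared with another gene, where reads were not counted, so their values are uncertain.

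Among the transcription factors, IRF1 and IRF7 rose and STAT2 was lower. IRF1, a factor induced by interferon gamma and by other stress signals (ENSG00000125347, chr5:132481609-132490777), was at 5.13, 5.33 and 5.34 CPM with DMSO and at 9.45, 12.1 and 12.1 CPM with niraparib. Its groups were well apart (log2 fold change 1.09 ± 0.12, edgeR adjusted p = 1.9e-07). IRF7, the factor that drives interferon alpha genes, rose by a log2 fold change of 0.62 ± 0.11 (edgeR adjusted p = 9.4e-05), or 0.57 without WT DMSO replicate 1, where it was not called. STAT2 was at 112, 96.0 and 95.7 CPM with DMSO and at 65.1, 76.0 and 61.6 CPM with niraparib, so that all niraparib libraries were lower (log2 fold change -0.58, edgeR adjusted p = 7.4e-06, just under 1.5-fold). SP100, a nuclear body protein (0.47), passed on the adjusted p. IRF9, the partner of STAT2, had 10 to 101 counts per library and a value of 0.43 that did not pass, and 45.5% of its exon bases are shared with another gene.

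XAF1, which promotes cell death by binding XIAP, was the other member that rose with niraparib. It was at 0.433, 0.252 and 0.474 CPM with DMSO and at 0.803, 0.759 and 0.839 CPM with niraparib. The niraparib libraries were all above DMSO at a low level (log2 fold change 1.07 ± 0.34, edgeR adjusted p = 0.016). Without WT DMSO replicate 2 the value was 0.81 and was not called. IFI35 (0.17), IFI44 (-0.16), EPSTI1 (-0.48), the secreted glycoprotein LGALS3BP (0.02) and the guanylate-binding protein GBP1 (0.44) did not pass.

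Leaving out single WT libraries also added calls with niraparib. IFIT5 was called without WT niraparib replicate 2 (0.62), WT DMSO replicate 2 (0.61) or WT DMSO replicate 3 (0.66), and STAT2 without the same libraries (-0.68, -0.61 and -0.62). IFITM3 was called without WT niraparib replicate 2 (0.63) or WT DMSO replicate 2 (0.65), OASL without WT DMSO replicate 2 (0.74) and HERC5 without WT niraparib replicate 3 (-0.59). IRF9 was called without WT DMSO replicate 1 (0.99, edgeR adjusted p = 0.030).

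Olaparib at the same concentration and time called 3 of the 48 members in WT cells, 6.25% beside 4.04% of all genes. IRF1 was at 14.3, 10.48 and 12.4 CPM, with no overlap with DMSO (log2 fold change 1.24 ± 0.12, edgeR adjusted p = 2.6e-07). ISG20 was at 6.76, 7.47 and 6.95 CPM, also above every DMSO library (0.75 ± 0.11, edgeR adjusted p = 4.0e-05). IFI27 fell, to 1.06, 0.785 and 0.952 CPM (-0.72 ± 0.23, edgeR adjusted p = 0.027). The IFI27 call was lost without WT olaparib replicate 2 (-0.61), WT olaparib replicate 3 (-0.73) or WT DMSO replicate 2 (-0.58). On the adjusted p alone 11 members passed, 9 of them higher, beside 19% of all genes. PLSCR1 (0.42), IRF7 (0.47), IFIT5 (0.45), IFITM1 (0.42), USP18 (0.36), OAS3 (0.31) and UBE2L6 (0.18) were among these, as was TRIM25 (-0.27) on the lower side. The median of the members was 0.07, beside -0.02 for all genes.

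The 2 compounds were compared directly in WT cells at the same dose and time, which is 1 pair of compounds. Of the 48 members 11 were called, 7 higher and 4 lower with niraparib than with olaparib. That is 22.9% of the members beside 8.95% of all genes (5.62% higher, 3.33% lower), and 21 members passed on the adjusted p alone beside 32.2% of all genes. The libraries are the same as those set against DMSO above, so these values are not independent of them. ISG20 was higher with niraparib by a log2 difference of 1.12 ± 0.10 (edgeR adjusted p = 1.8e-08), IFI27 by 1.42 ± 0.22 (2.1e-05), SAMD9L by 0.96 ± 0.19 (3.6e-04) and SAMD9 by 0.92 ± 0.16 (1.2e-04). The olaparib libraries of SAMD9, at 3.03, 4.06 and 3.30 CPM, overlapped the DMSO libraries, as did those of SAMD9L at 1.37, 1.73 and 1.999 CPM. XAF1, at 0.363, 0.298 and 0.381 CPM with olaparib, was higher with niraparib by 1.19 ± 0.35 (edgeR adjusted p = 0.011). ISG15, at 1.55, 1.84 and 2.79 CPM with olaparib, was higher by 0.85 ± 0.23 (edgeR adjusted p = 7.3e-03), or by 0.68 and not called without WT olaparib replicate 1.

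Lower with niraparib than with olaparib were IFIT1, MX2, IFITM1 and HERC5. IFIT1, at 8.01, 7.50 and 9.45 CPM with olaparib, differed by -1.20 ± 0.14 (edgeR adjusted p = 6.4e-07), and its olaparib libraries overlapped those with DMSO. MX2, at 2.77, 2.08 and 2.13 CPM with olaparib, differed by -0.85 ± 0.21 (edgeR adjusted p = 2.5e-03). IFITM1 was at 7.02, 7.26 and 7.61 CPM with olaparib and at 4.67, 4.77 and 4.89 CPM with niraparib, with no overlap (-0.62 ± 0.12, edgeR adjusted p = 2.4e-04). HERC5 had -0.60 (edgeR adjusted p = 3.1e-03), and its call was lost without WT olaparib replicate 1 (-0.57), WT niraparib replicate 1 (-0.56) or WT niraparib replicate 2 (-0.52). RSAD2, viperin, an enzyme that makes a chain-terminating nucleotide, was called at 1.64 ± 0.57 (edgeR adjusted p = 0.030) on 10, 14 and 14 counts with niraparib against 5, 3 and 2 with olaparib. Its call was lost with DESeq2 (1.68), with no filter on low counts (1.64), and without WT olaparib replicate 2 (1.55) or 3 (1.46) or WT niraparib replicate 1 (1.63) or 3 (1.52). EPSTI1 was called without WT olaparib replicate 2 (-0.64). For IRF1 the 2 compounds were not called different, with a difference of -0.15 and a 95% interval from -0.38 to 0.09, which does not show that they act alike.

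In PARP1 KO cells none of the 48 members was called by edgeR with niraparib, with olaparib or between the compounds, and none was called by DESeq2. At an unadjusted p below 0.05, edgeR listed 5 members with niraparib and 7 with olaparib, and 11 between the compounds. The background in these cells was low for niraparib, with 0.0136% of 22037 genes called (9.14% at the unadjusted p), and was 0.803% for olaparib (21.1%) and 1.07% between the compounds (22.1%). ISG20 was at 3.64, 3.91 and 4.57 CPM with DMSO, at 3.85, 4.85 and 4.95 CPM with niraparib and at 3.98, 4.74 and 3.74 CPM with olaparib. These 3 groups overlapped, and the log2 fold change with niraparib was 0.18 with a 95% interval from -0.14 to 0.50. IRF1 was at 5.88, 5.97 and 4.93 CPM with DMSO, at 5.32, 5.44 and 5.52 CPM with niraparib and at 7.25, 6.16 and 7.52 CPM with olaparib. The olaparib libraries were the highest, by 0.32 (edgeR adjusted p = 0.13), and the niraparib interval ran from -0.30 to 0.23. IFIT1, at 6.65, 7.76 and 6.75 CPM with DMSO and at 6.41, 8.33 and 5.19 CPM with niraparib, had an interval from -0.39 to 0.22. Over the 12 members called in WT, the PARP1 KO values ran from -0.16 to 0.62 with a median of -0.06.

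Between the 2 compounds in PARP1 KO cells, 3 members passed on the adjusted p alone, beside 10.0% of all genes. SAMD9 was higher with niraparib than with olaparib (0.56), and DDX60 (-0.47) and EIF2AK2 (-0.26) were lower. Leaving out libraries moved SAMD9 past the 1.5-fold threshold (without PARP1 KO olaparib replicate 1 or PARP1 KO niraparib replicate 3), and likewise DDX60 (without PARP1 KO niraparib replicate 1). IRF9 was called with olaparib when PARP1 KO olaparib replicate 1 was left out (1.43), on 10 to 51 counts per PARP1 KO library. OAS2, with a log2 fold change of -0.52 and an adjusted p of 0.097 in edgeR, was the member with the smallest p for niraparib in PARP1 KO cells.

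**Figure D3:**
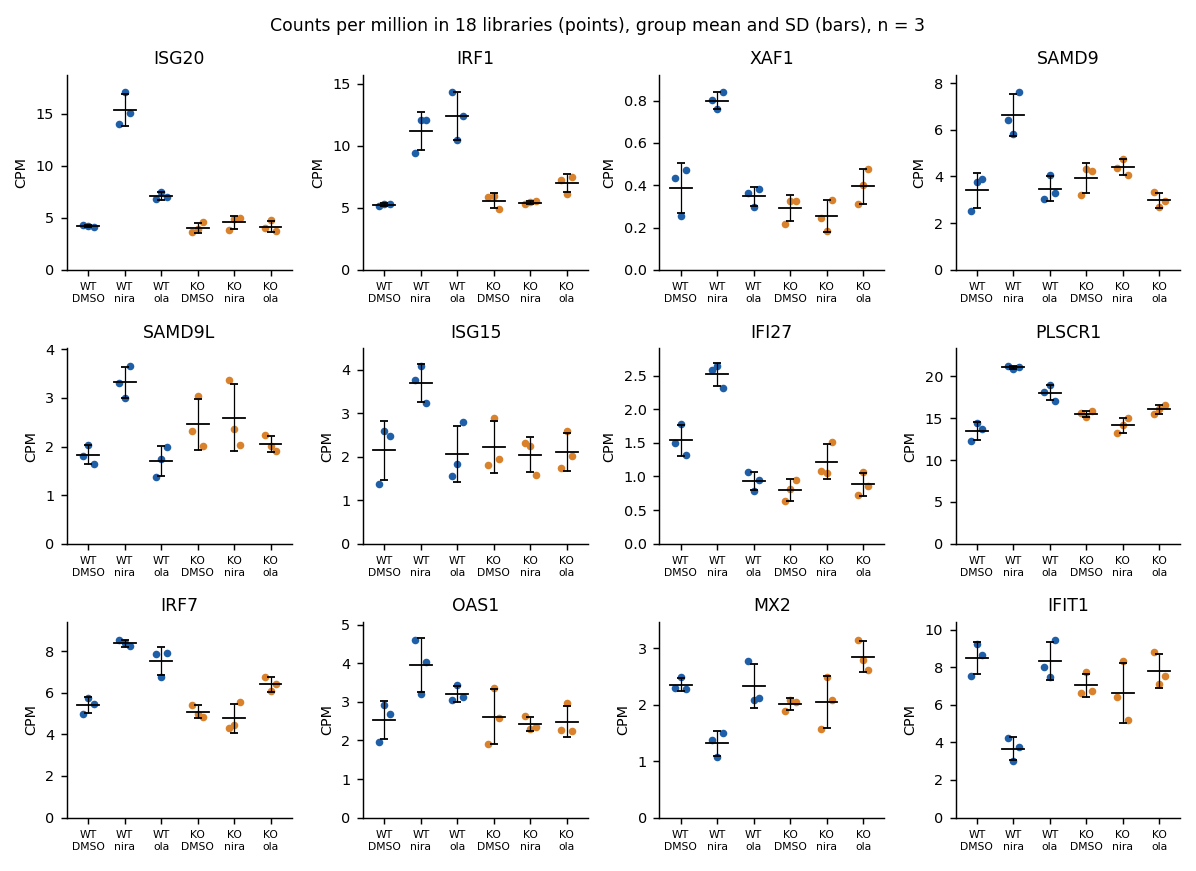
CPM in all 18 libraries for the 12 members called with niraparib in WT cells, 1 panel per member, with a point per library and the mean with its SD (n = 3) for each group. ISG20 and IRF1 separate by drug in WT cells (ISG20 at 13.97 to 17.05 CPM with niraparib against 4.14 to 4.33 with DMSO), and the 3 PARP1 KO groups of ISG20 overlap (3.64 to 4.95 CPM).

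Whether the drug effect differed between genotypes was tested as an interaction, the effect in PARP1 KO minus that in WT, over all 18 libraries. For niraparib 10 of the 49 members were called, 3 higher and 7 lower, or 20.4% beside 8.88% of all 24675 genes (3.68% higher, 5.2% lower). On the adjusted p alone 21 members passed, beside 22.9% of all genes. The 7 lower were ISG20 (-1.69 ± 0.18, edgeR adjusted p = 3.1e-09), IRF1 (-1.13 ± 0.18, 4.5e-06), SAMD9L (-0.78), SAMD9 (-0.78), PLSCR1 (-0.77 ± 0.11, 1.1e-06), OAS1 (-0.73, 0.0496) and IRF7 (-0.71, 1.6e-03). Each of them rose with niraparib in WT cells. The 3 higher were IFIT1 (1.14 ± 0.21, edgeR adjusted p = 8.2e-05), MX2 (0.89 ± 0.28, 0.016) and STAT2 (0.64 ± 0.09, 7.9e-07), which had negative values in WT cells. STAT2 stayed at 87.6 to 104 CPM over the 9 PARP1 KO libraries. Of the 12 members called in WT, 9 had a called interaction, and IFI27 (-0.09), ISG15 (-0.88) and XAF1 (-1.23) did not. The interaction contains the WT libraries that gave the WT calls, so this count and the opposite signs are not independent of those calls. The MX2 call was lost without PARP1 KO niraparib replicate 2 or WT niraparib replicate 2 (both 0.74), and that of STAT2 without WT niraparib replicate 3 (0.56) or WT DMSO replicate 1 (0.57). SAMD9L lost its call without any of 6 of the 12 libraries (-0.77 to -0.61), and OAS1 without any of 9 (-0.78 to -0.52), with DESeq2 (-0.72) and with DESeq2's size factors in edgeR (-0.72). Calls were gained by SP100 (-0.65 to -0.59) and IFIT5 (-0.65 to -0.59) in several fits with 1 library left out. ISG15 gained one in some of these fits (-1.05 to -0.995), with no filter on low counts (-0.88) and with the replicate number as a block (-0.92). RSAD2 gained one without PARP1 KO niraparib replicate 1 (-2.46) and GBP1 without PARP1 KO niraparib replicate 2 (-0.89).

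For olaparib, 2 of the 49 members had a called interaction, 4.08% beside 0.657% of all genes. IRF1 had -0.92 ± 0.17 (edgeR adjusted p = 1.9e-03), and ISG20 had -0.70 ± 0.18 (edgeR adjusted p = 0.030). The ISG20 call was lost without any of 6 of the 12 libraries, with values from -0.72 to -0.60.

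Without drug, PARP1 KO and WT cells differed in 1 of the 49 members, or 2.04% beside 0.146% of all genes. IFI27 was at 0.629, 0.815 and 0.952 CPM in PARP1 KO DMSO libraries and at 1.499, 1.78 and 1.32 CPM in WT DMSO libraries, without overlap (log2 fold change -0.95 ± 0.25, edgeR adjusted p = 0.045). This call was lost with DESeq2 (-0.95), with the 6 DMSO libraries alone (-0.95), and without any single DMSO library except WT DMSO replicate 3 (-1.10 to -0.80). With niraparib IFI27 was at 1.09, 1.04 and 1.52 CPM in PARP1 KO cells, a value of 0.62 that did not pass (edgeR adjusted p = 0.52), with a 95% interval from 0.03 to 1.22. The median of the members between genotypes was -0.00177.

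Members that lie side by side could be compared for direction. Within 100000 bases of each other lay 13 neighbouring pairs, from 22 members. SAMD9 and SAMD9L both rose with niraparib in WT cells, and HERC6 and HERC5 both had negative values (-0.37 and -0.45). OAS1, OAS3 and OAS2, in a row on chromosome 12 with 5222 and 5144 bases between them, had 0.62, 0.35 and -0.15. IFITM1 and IFITM3, 4404 bases apart on opposite strands, had -0.20 and 0.55. Opposite signs with both values past the adjusted p occurred in IFIT1 with IFIT5 and in MX2 with MX1. Of the members that rose with niraparib in WT cells and had a window, 5 of 9 held the ISRE core (IFI27, ISG15, ISG20, PLSCR1 and SAMD9) and 4 of 9 the GAS letters (IFI27, IRF1, OAS1 and PLSCR1). The 1 member with a window that fell, IFIT1, held the ISRE core, as did 23 of the 31 that were not called.

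The other parts of the pathway were followed in lists of ligands, receptors, signalling, sensing and clearance genes. None of 15 interferon genes passed the filter on low counts in the 9-library fits, and IFNL1 alone passed it in the 18-library fit, where it was not called. Together they had 0 to 7 counts per library (0 to 0.136 CPM). Of 6 receptor chains, IFNGR2, of the interferon gamma receptor, fell with niraparib in WT cells (-0.69, edgeR adjusted p = 1.2e-07). That is 16.7% of the chains called, beside 13.8% of all genes. IFNGR1, its partner chain (0.58, edgeR adjusted p = 1.4e-06), and IFNLR1, of the interferon lambda receptor (0.45, 1.1e-03), were higher past the adjusted p but under 1.5-fold. IFNAR1, of the receptor for interferon alpha and beta, was at 68.3 to 92.2 CPM over all libraries. Of 12 signalling genes, the inhibitor SOCS1, itself an interferon target, rose with niraparib (1.54, edgeR adjusted p = 1.3e-03) and with olaparib (1.11, 0.036). The olaparib call of SOCS1 was lost without WT olaparib replicate 1 (0.64), WT DMSO replicate 2 (0.99) or WT DMSO replicate 3 (1.07). IRF2, a repressor of interferon targets, was lower with niraparib than with olaparib (-0.70).

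Of 10 sensing genes tested, 3 were called with niraparib in WT cells, all upward, or 30% beside the 13.8% of all genes. On the adjusted p alone 7 passed, beside 38.0% of all genes. Of these 4 were lower, namely TRIM56 (-0.34), IRF3 (-0.27), MAVS (-0.26) and DHX58 (-0.22), so that the median of the list was -0.14. STING1, the adaptor downstream of cGAS, was at 0.533, 0.912 and 1.62 CPM with DMSO, at 3.21, 4.45 and 3.70 CPM with niraparib and at 2.07, 1.84 and 2.28 CPM with olaparib. Both drug groups were above DMSO (1.87 with niraparib, edgeR adjusted p = 9.5e-06; 0.99 with olaparib, 0.015), the olaparib call being lost without WT olaparib replicate 1 (0.98) or 3 (0.91) or WT DMSO replicate 2 (0.89). TLR3, a sensor of double-stranded RNA in endosomes, rose (1.12, edgeR adjusted p = 4.5e-04), as did the DNA sensor IFI16 (2.64, 2.7e-04), from 2 to 6 counts to 17 to 42. Between the compounds, STING1 (0.88), TLR3 (0.77) and IFI16 (1.60) were higher with niraparib. Their calls were lost without WT olaparib replicate 2 (STING1, 0.80), without WT olaparib replicate 3 or WT niraparib replicate 1 (TLR3, 0.68 and 0.69), and without WT olaparib replicate 2 or 3 or WT niraparib replicate 2 (IFI16, 1.30, 1.38 and 1.42). CGAS had 0 to 3 counts per library. RNASEH2B, of the nuclease that removes RNA from DNA, rose (0.59, edgeR adjusted p = 2.3e-05). It was 1 of 7 clearance and editing genes tested (14.3%, near the 13.8% of all genes). Its call was lost without WT niraparib replicate 3 (0.52) or WT DMSO replicate 2 or 3 (both 0.56). CD274, which encodes the checkpoint ligand PD-L1, rose (1.26, edgeR adjusted p = 0.012). It was 1 of 6 interferon gamma and chemokine targets tested (16.7%, near the 13.8% of all genes). In PARP1 KO cells the 1 call in these lists was CIITA (-1.70 between the compounds, edgeR adjusted p = 0.048). It was lost when any of the 6 libraries was left out (-1.81 to -1.57), with DESeq2 (-1.725) and with no filter on low counts (-1.70). Of the 10 sensing genes, none passed the adjusted p with niraparib in PARP1 KO cells, where the highest value was 1.78. With olaparib 3 passed it, 1 higher and 2 lower, beside 1827 of all 22037 genes, and the highest value was 2.34. The niraparib interaction was called for STING1 (-1.90), SOCS1 (-1.51), TLR3 (-1.35), RNASEH2B (-0.70), IFNGR1 (-0.62) and IFNGR2 (0.63). It was not called for IFI16, whose rise was thus not shown to differ between genotypes. Single libraries decided 3 of the interaction calls. That of SOCS1 was lost without PARP1 KO DMSO replicate 1 or WT niraparib replicate 2 (both -1.30), that of IFNGR2 without WT niraparib replicate 2 (0.55), and that of IFNGR1 without PARP1 KO niraparib replicate 3 (-0.58), PARP1 KO DMSO replicate 3 (-0.58) or WT DMSO replicate 3 (-0.56). Of the 8 luminal markers, PGR (-0.88) and GATA3 (-0.74) fell with niraparib in WT cells and PGR (-0.62) fell with olaparib, and 7 of the 8 were lower past the adjusted p with each drug. In PARP1 KO cells 4 of the 8 were lower past the adjusted p with olaparib, beside 1827 of all 22037 genes passing in either direction. With niraparib 3 of the 8 had an edgeR p below 0.05 before adjustment, beside 9.14% of all genes, and none after it. The niraparib interaction was called for PGR (0.71, edgeR adjusted p = 1.7e-06) and GATA3 (0.71, 5.5e-10). The olaparib call of PGR was lost without WT olaparib replicate 1 (-0.58) or WT DMSO replicate 1 (-0.55). Their part in the members' values was not tested.

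**Figure D4:**
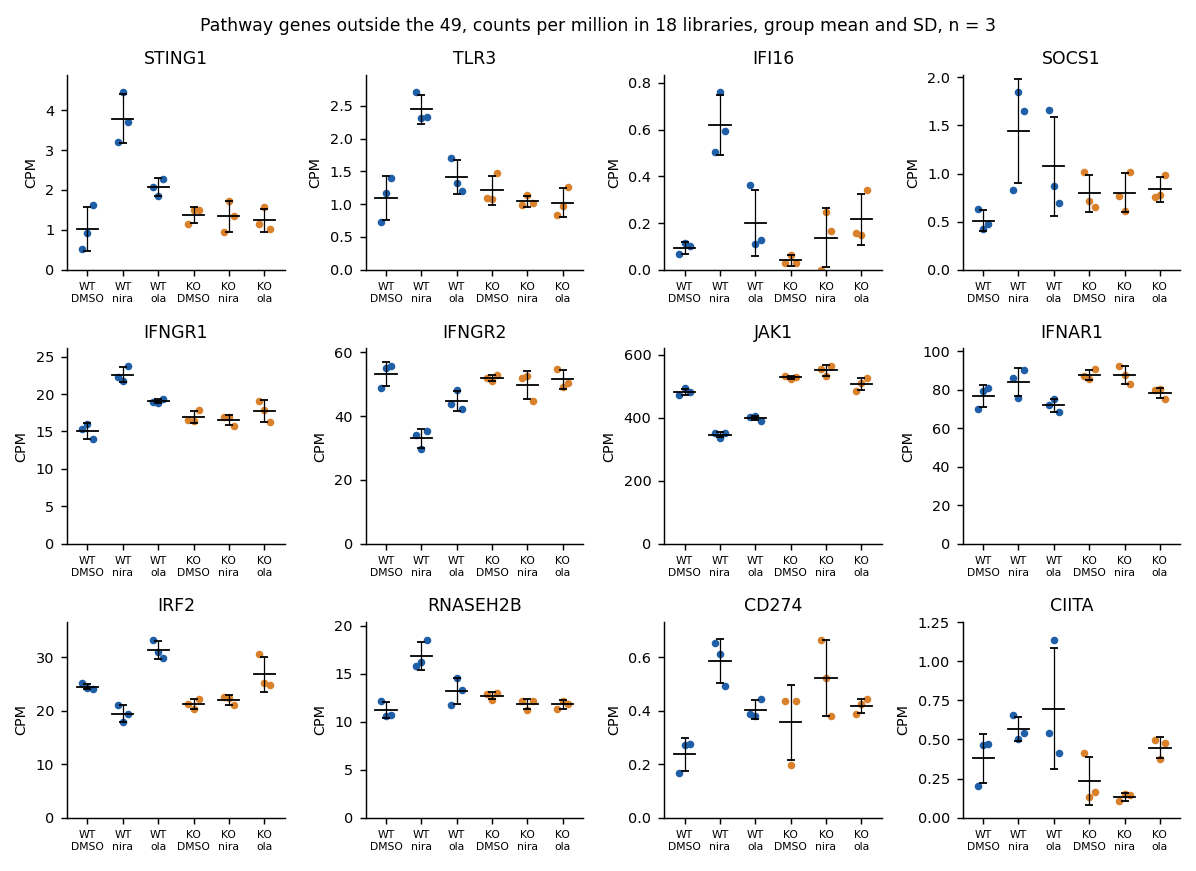
CPM in all 18 libraries for 12 pathway genes outside the member list, 1 panel per gene and 1 point per library, with the mean and SD (n = 3) of each group. The genes come from the sensing, receptor, signalling, clearance and editing, and interferon gamma and chemokine target lists. STING1 is at 3.21 to 4.45 CPM with niraparib in WT cells against 0.533 to 1.62 with DMSO, and IFNAR1 stays between 68.3 and 92.2 CPM.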

How the data were processed

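The deposited files hold raw counts per gene for 1 library each. Per the file headers the authors counted reads over exons with featureCounts 2.0.0 on the reverse strand against Ensembl release 96 (GRCh38), leaving out reads that overlap more than 1 gene. Trimming with Trimmomatic, mapping with STAR and duplicate marking with Picard came first. Members and lists were chosen with earlier results of these data known.

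Genes with more than 10 counts in total were fitted with edgeR 4.0.16 in R 4.3.3 (TMM, robust quasi-likelihood F test, Benjamini-Hochberg adjustment), over 9 libraries per genotype, or 18 for genotype and interaction. Each error was taken as the size of the log2 change over the root of its F value. CPM and RPKM use TMM-scaled totals and union exon length. DESeq2 1.42.0 was an alternative. The study's methods describe 3 dishes per condition for its omics treatments, and the labels do not say how replicates relate to dishes, passages or days, so p-values measure the spread between these libraries, which may be technical. An exact permutation test of 3 against 3 libraries cannot go below 0.1 and was not used for calls. Members called in a comparison are described in every library, largest change first, at most 10 per comparison, and other called genes by fold change. IFI27, IRF1, ISG20, MX1, IFIT5, BST2, STAT2 and STING1 are given in further libraries than this rule asks. Alternatives were other normalization, no low-count filter, other fold thresholds, DESeq2, a replicate block and each library left out.

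Values of 2 genes of the signalling and marker lists are not reported here.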

Additional observations from a re-analysis of the deposited data

Results flagged for a closer look

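The following members were singled out because the drug effect differed between genotypes by the test of the difference itself, the genotype by drug interaction in edgeR (PARP1 KO effect minus WT effect, adjusted p below 0.05 over all genes and more than 1.5-fold). For niraparib the log2 differences were -1.69 for ISG20, 1.14 for IFIT1, -1.13 for IRF1, 0.89 for MX2, -0.78 for SAMD9L, -0.78 for SAMD9, -0.77 for PLSCR1, -0.73 for OAS1, -0.71 for IRF7 and 0.64 for STAT2. For olaparib they were -0.92 for IRF1 and -0.70 for ISG20. With 3 libraries per group, single libraries were not tested for lying apart.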

How the results depend on the processing

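Without the fold threshold the counts of called members were 29 (WT niraparib), 11 (WT olaparib), 21 (WT niraparib against olaparib), 3 (the same in PARP1 KO) and 21 (niraparib interaction). Above 2-fold they were 4, 1 and 5 in the 3 WT comparisons, 0 between genotypes, 3 for the niraparib interaction and 0 for that of olaparib, where 6.51%, 1.62%, 3.52%, 0.0365%, 3.76% and 0.239% of all genes passed. Above a log2 fold change of 1.5 they were 1, 0, 1, 0, 1 and 0 in the same order, beside 3.16%, 0.682%, 1.64%, 0.0122%, 1.85% and 0.122% of all genes. Leaving out 1 library at a time gave 9 to 15 calls for WT niraparib, 2 to 3 for WT olaparib, 9 to 11 between the compounds in WT, 0 for PARP1 KO niraparib, 0 to 1 for PARP1 KO olaparib, 0 to 1 between the compounds in PARP1 KO, 0 to 1 between genotypes, 7 to 13 for the niraparib interaction and 1 to 2 for that of olaparib. Between genotypes 0 members were called with DESeq2, with the 6 DMSO libraries alone and with the replicate number as a block.

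Same-numbered libraries showed no common direction of deviation (correlations from -0.56 to 0.578 over 18 pairs of libraries). With 3 libraries per group this cannot exclude pairing, so the replicate block is given only as a check. Differently numbered libraries ran from -0.612 to 0.654, the highest being WT DMSO replicate 1 with WT niraparib replicate 2. These 2 were the lowest libraries of their groups for 27 and 23 of the 43 members with a mean of at least 1 CPM. Besides IFI27 between genotypes (-1.27), the block ended the calls of OAS1 in the niraparib interaction (-0.71) and of SOCS1 with olaparib in WT cells (1.08). It also ended that of CIITA in PARP1 KO cells (-1.67). Among the members it added a call for ISG15 in the niraparib interaction (-0.92, edgeR adjusted p = 0.029). Of 516 values of called members, pathway genes and markers with 1 library left out, 440 kept their call and 0 changed sign, and of 376 values under the other fits 364 kept it and 0 changed sign. For IFI44L and CMPK2, at 0 to 4 counts per library, no difference was detectable at this depth.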
